A study of Mus musculus with 8 samples.

Results

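Esrrb-overexpressing mouse embryonic stem cells (ESCs) were compared with and without nucleostemin (NS), the nucleolar GTP-binding protein of the gene Gnl3, on 2 of the 8 Affymetrix arrays used here. One array holds RNA of Dox-untreated and the other RNA of Dox-treated cells, and both were chosen by their labels. All 8 arrays come from male 129sv NS tet-off ESCs. Both copies of the NS gene are disrupted in these cells, and NS is made from a cDNA in the ROSA26 locus that doxycycline (Dox) shuts off. The cells were grown without feeders in medium with LIF and serum, and an Esrrb expression vector was integrated stably under puromycin selection. Dox was given for 6 days. The other 6 arrays are pairs of the same kind, 1 pair for each of the following. They are cells with an empty vector, empty vector cells in the 2i condition (inhibitors of MEK and of GSK3b), and Nanog-overexpressing cells. Below, the empty vector pair is the one without 2i. As each condition has 1 array, no difference within the Esrrb pair could be checked in replicates, and this limits the precision. Dox was present on every array without NS, so an effect of Dox itself and of NS loss cannot be told apart.

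NS works in the nucleolus in ribosome production and protects the genome, and ESCs without it lose viability. Esrrb is an orphan nuclear receptor of the naive pluripotency network, in which it acts downstream of Nanog and of GSK3 inhibition. Several programmes recur below, and their gene lists were drawn up with earlier results of these data known. Shares of a list set beside shares of all genes are therefore a description and not a test. Primitive endoderm is the layer next to the epiblast in the blastocyst, specified by Gata6, Gata4, Sox17 and Sox7, and ESC cultures can hold cells that drift towards it. The amino acid stress response runs through the transcription factor Atf4, which induces genes of amino acid synthesis, transport and tRNA charging. Glycolysis and the hypoxia response share regulation by the Hif factors.

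Values are log2 signals, and a log2 ratio is the treated minus the untreated log2 signal, so that 1 is a doubling. The log2 signal of Gnl3 was 13.61 in Esrrb cells without and 8.61 with Dox, a log2 ratio of -5.00. This ratio was the lowest of all 18194 genes measured in the pair, so the arrays carry the loss of NS that their labels state. In the other pairs Gnl3 had log2 ratios of -5.68 (empty vector), -5.53 (2i) and -4.56 (Nanog). The Esrrb vector was hardly visible on the arrays. The brightest of 3 Esrrb probe sets read 11.27 and 11.38 on the Esrrb arrays against 11.31 on the Dox-untreated empty vector array, and the dimmest read 7.77 and 7.87 against 7.03. Whether these probe sets match the vector's cDNA was not tested. After Dox the brightest probe set was at 10.38 on the empty vector array.

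The ESC markers Pou5f1, Sox2, Nanog, Zfp42, Utf1 and Dppa5a had a log2 signal of 10.71 or more on both Esrrb arrays, far above the median over genes of 6.69. Pou5f1, the core pluripotency factor Oct3/4, read 13.07 and 13.18. Of the fibroblast markers, Col1a1, Col1a2, Col3a1, Dcn, Lum and Postn were at 4.88 or below and Thy1 was at 7.71 and 7.38. The trophoblast markers Cdx2, Gata3 and Elf5 stayed at 4.68 or below. No level is given here for the other trophoblast markers, Eomes, Krt8 and Krt18, so these low levels do not describe the whole marker set. Of the 23 trophoblast genes measured, 0 passed 2-fold in the Esrrb pair. The endoderm markers were Gata4, Gata6, Sox17, Sox7, Dab2, Cubn, Afp and Ttr. On the untreated Esrrb array Gata6, Sox17, Sox7, Dab2 and Cubn were each over 2-fold above the mean of the other untreated arrays. Gata4 (0.93 above on the log2 scale), Afp and Ttr were not. Pdgfra, from the wider endoderm list described below, was also over 2-fold above.

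After Dox 193 genes (1.06% of 18194) exceeded 2-fold upwards in the Esrrb pair and 176 (0.967%) exceeded it downwards. The SD of the log2 ratio over genes was 0.374, as against 0.644 in the empty vector pair. Most of what remained under forced Esrrb also moved in the other backgrounds: 160 of the 193 genes (82.9%) were higher in all 3 other pairs, compared with 22.9% of all genes. Of the 176 lower genes 126 (71.6%) were lower in all 3, compared with 24.4% of all genes. These pairs have no array in common. The response without forced Esrrb was wider. Of the 976 genes (5.36%) that exceeded 2-fold upwards with the empty vector, 144 (14.8%) were so in the Esrrb pair, which is 74.6% of the 193, and 594 (60.9%) stayed within 1.5-fold there. Of the 701 (3.85%) that exceeded it downwards, 92 (13.1%) were so in the Esrrb pair, which is 52.3% of the 176, and 484 (69%) stayed within 1.5-fold. Only 7 of the 193 genes and 14 of the 176 were within 1.5-fold in all 3 other pairs.

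**Figure D1:**
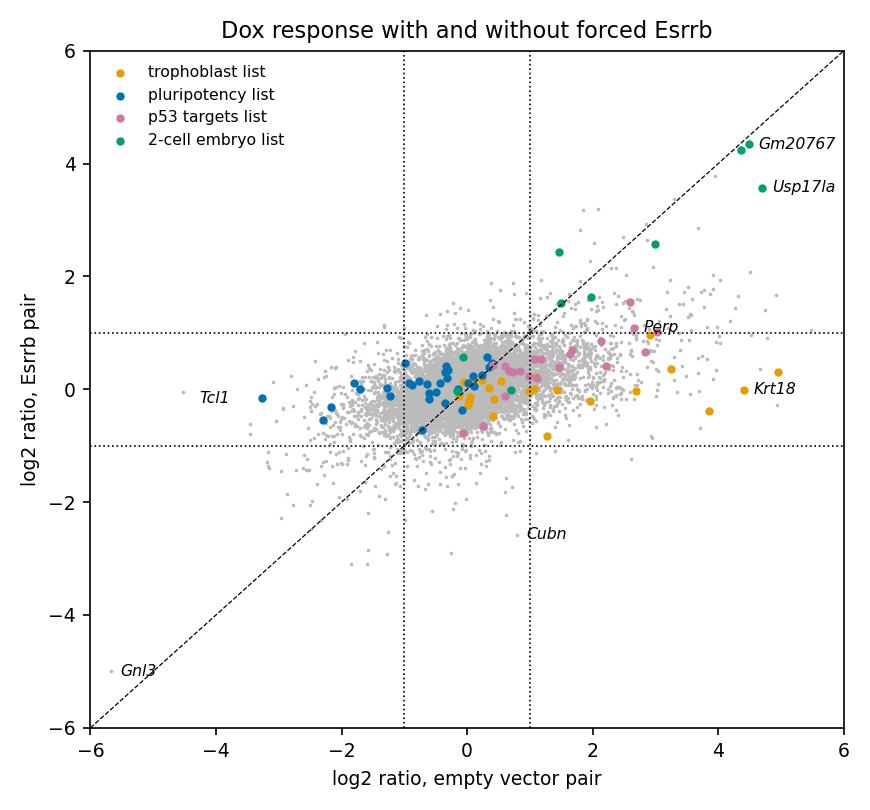
Log2 ratio, treated with Dox against untreated, of each gene (1 point per gene) in the empty vector pair (horizontal axis) and in the Esrrb pair (vertical axis), with 4 gene lists in colour, dotted lines at 2-fold and a dashed line where both ratios are equal. Trophoblast and pluripotency genes spread along the horizontal axis (Krt18 4.42 against -0.01, Tcl1 -3.27 against -0.16). Gnl3 and the 2-cell embryo gene Gm20767 lie near the dashed line, whereas Usp17la, high in both pairs, lies below it (4.70 against 3.57).

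Since single arrays allow no test, genes were tested over the 4 backgrounds taken as replicates (limma, background as a block). At an adjusted p under 0.05, 671 genes (3.69%) rose and 616 (3.39%) fell over the 4 backgrounds, and these include 123 of the 193 and 92 of the 176 genes. The Esrrb pair is itself 1 of the 4 pairs tested, so this overlap is not independent of it. The calls rest on all 4 pairs: with 1 pair left out the genes called numbered 29 (without the empty vector pair), 18 (without 2i), 35 (without Nanog) and 3 (without Esrrb), these 3 being Gnl3, Ptprv and Insyn2b. The adjusted p-values below are from the fit on all 4 pairs. The response of the Esrrb pair was also tested against that of the other 3 pairs, with the lone Esrrb pair assumed to vary as the others do. No gene was called (limma, 0 genes, 0.0%, and 400 genes or 2.2% at an unadjusted p under 0.05), and the smallest adjusted p was 0.709. A fit with 2 residual degrees of freedom does not show that the responses were alike.

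The highest log2 ratios of the Esrrb pair belonged to genes of the 2-cell embryo, a state that a small share of cultured ESCs enters for a time. Gm20767 read 6.00 and 10.34 on the untreated and treated Esrrb arrays, 5.22 and 9.71 with the empty vector, 7.70 and 9.75 in 2i and 4.97 and 7.89 with Nanog. The untreated arrays were all below the treated ones, and the log2 ratio was 4.34 in the Esrrb and 4.49 in the empty vector pair. AF067061 read 7.80 and 12.05 on the Esrrb arrays, a log2 ratio of 4.25. The 2 genes and Tcstv1 belong to 1 cluster of near-identical copies on chromosome 13, so that their probe sets may read one another's transcripts. Usp17la, of a family of deubiquitinating enzymes, read 6.19 and 9.76 (log2 ratio 3.57). Of the 10 measured genes of the 2-cell list, 7 were over 2-fold higher (1.06% of all genes were), and 0 were lower to that extent. Among the 7 were Zfp352 (2.58), Tcstv3 (2.43) and Sp110 (1.52). The list's median log2 ratio was 2.03, beside 0.00 over all genes. Its median was 1.73 with the empty vector, 1.56 in 2i and 0.39 with Nanog. Over the 4 backgrounds 4 of the 10 rose (3.69% of all genes did), for instance Usp17la (log2 change 3.49, SE 0.326, adjusted p = 0.0161 from limma, higher in 4 of 4 pairs). The list is small and dim. With genes below the median signal left out, 3 genes over 2-fold higher were left, and these 3 are Gm20767, AF067061 and Usp17la.

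Outside that list the strongest increases among genes at or above the median signal of the Esrrb arrays mostly had ratios of the same sign in the other backgrounds. The highest, Gm7969, read 5.42 and 8.61 (log2 ratio 3.19), with 1.84 and 2.68 with the empty vector and in 2i but 0.07 with Nanog, and was not called over the 4 backgrounds (adjusted p = 0.068 from limma). Cox6b2, a testis form of a cytochrome c oxidase subunit, read 8.51 and 11.21 on the Esrrb arrays (log2 ratio 2.70), and its ratios in the other 3 pairs were 2.48, 1.79 and 2.17. Ptprv, a receptor-type phosphatase induced by p53, went from 7.26 to 9.43 (2.16), and Prmt8, an arginine methyltransferase, from 6.11 to 8.27 (2.16). Both rose over the 4 backgrounds with an adjusted p of 0.0118 from limma. Kank3 (2.15), the neurogenic factor Neurod1 (2.03), Mmrn2 (1.93), Gask1b (1.77) and Pm20d1 (1.73) were also called. For Spesp1 (2.86), Gm7969 (3.19), Kank3 and Zfp365 (1.82) other probe sets of the gene gave a smaller ratio, down to 0.47, 1.41, 0.42 and 0.63. Ryr3 (1.77), a calcium release channel, had ratios of 0.52 with the empty vector and -1.25 in 2i and was not called, and 1 of its 3 probe sets stood at 0.07.

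The p53 targets were higher by less than with the empty vector. Of 21 measured targets 18 were higher after Dox in the Esrrb pair (50.4% of all genes were), 3 of them over 2-fold (1.06% of all genes), and their median log2 ratio was 0.42. With the empty vector the median was 1.11 and 12 targets were over 2-fold higher (5.36% of all genes were). The Nanog pair was similar to the Esrrb pair, with a median of 0.31 and 4 targets over 2-fold higher (206 of all 18194 genes were). Over the 4 backgrounds 6 of the 21 rose (3.69% of all genes did), and none of them was called for a difference of the Esrrb pair from the others (limma). Dcxr, a carbonyl reductase, read 9.01 and 10.56 on the Esrrb arrays (log2 ratio 1.55, against 2.59 in the empty vector pair). Perp, an effector of p53-dependent death, read 9.78 and 10.87 (1.09 against 2.66). The cell cycle inhibitor Cdkn1a had a log2 ratio of 0.39 and Mdm2, the ligase that degrades p53, of 0.42, against 1.46 and 2.21. Plk2 (1.02), a stress kinase, had a second probe set at -0.22. Another inhibitor of the cell cycle, Cdkn2b, read 5.53 and 7.29 (1.76, against 3.77 in the empty vector pair). Against this trend Gadd45a (-0.78) and Sesn2 (-0.64) were lower in the Esrrb pair, and Sesn2 is also a target of Atf4.

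**Figure D2:**
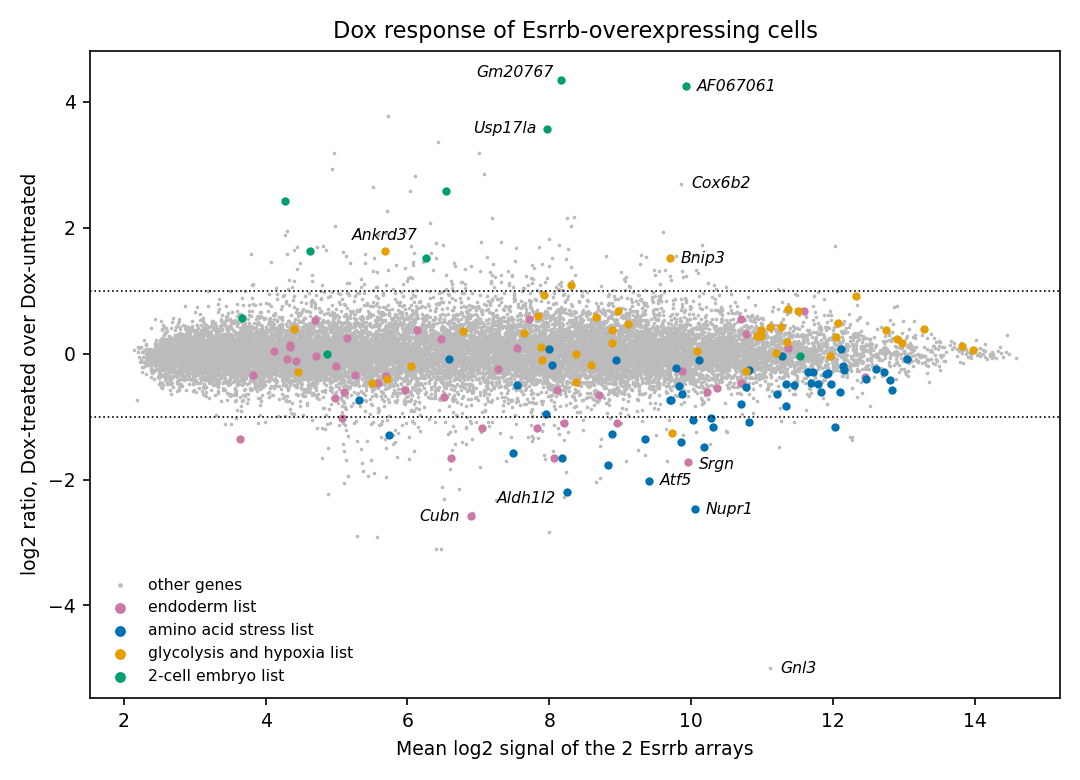
Log2 ratio, treated with Dox against untreated, in Esrrb-overexpressing cells (vertical axis) against the mean log2 signal of both arrays (horizontal axis), 1 point per gene, with 4 gene lists in colour and dotted lines at 2-fold. Gnl3 (-5.00) lies lowest, 2-cell embryo genes lie highest (Gm20767 4.34), and most amino acid stress genes lie below 0.

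Most of the amino acid stress genes were lower after Dox. Of 55 measured genes 53 were lower after Dox in the Esrrb pair, where 49.5% of all genes were lower. Downwards, 26 exceeded 1.5-fold (3.55% of all genes did) and 16 exceeded 2-fold (0.967% did), with 0 past either fold upwards. The median log2 ratio was -0.52, beside 0.00 over all genes. With the empty vector it was -0.19, in 2i -0.32 and with Nanog -0.42, and for 36 of the 55 genes the Esrrb pair had the lowest ratio of the 4, as it did for 22.5% of all genes. Over the 4 backgrounds 19 of the 55 fell and 0 rose in the limma test, as did 3.39% and 3.69% of all genes.

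The Atf4 target genes share a recognition sequence, so promoters are shown for Nupr1, Chac1 and Gpt2, members past 2-fold that hold its core. Asns, whose log2 ratio was -0.08, is shown as a contrast. Of the other members past 2-fold, Atf3, Atf5, Vldlr, Slc7a11, Trib3 and Mthfd2 also held the core. Stc2, Cebpb, Cebpg, Ddit3, Phgdh and Psph, also past 2-fold, did not. The letters TGATGNA, the core of the amino acid response element, were searched on both strands from 250 bases before to 50 after each start site. They occurred in at least 1 window of 22 of the 45 members of the list with a RefSeq promoter window (48.9%), in 10.2% of the 14453 array genes with one and in 12.2% of all 32851 windows. The list was drawn up from general knowledge around the Atf4 response, with earlier results of these data known. Its excess over array genes was largely set by that choice. Of the 24 members over 1.5-fold lower with a window, 13 (54.2%) held them, a share near that of the whole list. Capitals mark the match. Each sequence is given on the strand of its gene (RefSeq, GRCm38.p6), so that a match on the other strand reads TGCATCA or TTCATCA. The windows are Nupr1 at chr7:126625421-126625720 (minus strand), Chac1 at chr2:119350992-119351291 (plus strand), Gpt2 at chr8:85492326-85492625 (plus strand) and Asns at chr6:7693160-7693459 (minus strand).
Nupr1: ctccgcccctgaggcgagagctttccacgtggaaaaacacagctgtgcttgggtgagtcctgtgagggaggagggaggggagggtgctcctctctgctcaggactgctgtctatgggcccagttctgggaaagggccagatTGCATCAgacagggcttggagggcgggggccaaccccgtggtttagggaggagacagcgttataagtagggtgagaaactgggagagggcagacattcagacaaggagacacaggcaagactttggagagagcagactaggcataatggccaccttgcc
Chac1: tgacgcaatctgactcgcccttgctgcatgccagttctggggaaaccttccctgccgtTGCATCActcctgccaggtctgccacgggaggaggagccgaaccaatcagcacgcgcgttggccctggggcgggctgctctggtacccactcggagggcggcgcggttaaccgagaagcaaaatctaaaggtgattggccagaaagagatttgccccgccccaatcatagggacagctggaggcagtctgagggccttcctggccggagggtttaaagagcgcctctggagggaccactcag
Gpt2: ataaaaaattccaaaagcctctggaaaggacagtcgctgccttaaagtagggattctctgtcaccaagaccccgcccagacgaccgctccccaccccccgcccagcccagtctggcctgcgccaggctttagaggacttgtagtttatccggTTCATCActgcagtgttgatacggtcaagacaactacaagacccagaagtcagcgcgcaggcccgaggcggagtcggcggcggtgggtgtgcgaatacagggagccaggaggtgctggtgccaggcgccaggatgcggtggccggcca
Asns: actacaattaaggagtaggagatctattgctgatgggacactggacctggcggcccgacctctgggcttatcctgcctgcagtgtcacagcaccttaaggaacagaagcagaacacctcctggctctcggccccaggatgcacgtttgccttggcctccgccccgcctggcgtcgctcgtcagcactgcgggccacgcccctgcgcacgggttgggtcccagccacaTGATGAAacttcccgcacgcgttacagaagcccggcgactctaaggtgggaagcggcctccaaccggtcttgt
The match begins at -109, -192 and -98 from the start site in Nupr1, Chac1 and Gpt2, and at -23 in Asns. The letters are part of longer sites that C/EBP and AP-1 factors also use, and a match is no evidence of binding.

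The regulators of the response were lower together, with 7 of 13 over 2-fold lower (0.967% of all genes were). Their median log2 ratio was -1.16, as against 0.04 in the empty vector pair. Nupr1, a chromatin-associated stress protein, read 11.29 and 8.82 on the Esrrb arrays, 11.86 and 9.38 with the empty vector, 11.79 and 10.35 in 2i and 11.54 and 9.79 with Nanog. All 4 treated arrays were below all untreated ones, and the treated Esrrb array was the lowest. The log2 ratio was -2.47 in the Esrrb pair and -2.48, -1.44 and -1.75 in the others. It fell over the 4 backgrounds (log2 change -2.04, SE 0.197, adjusted p = 0.0172 from limma). Cebpg, a dimer partner of Atf4, read 10.03 and 8.67 (-1.35) and also fell (-1.27, SE 0.110, adjusted p = 0.0139).

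A second set of regulators was lower mainly with forced Nanog or Esrrb. Atf5, a close relative of Atf4, read 10.42 and 8.40 on the Esrrb arrays and 10.05 and 7.78 on the Nanog arrays, log2 ratios of -2.02 and -2.26. On the empty vector arrays Atf5 read 9.62 and 9.43 and on the 2i arrays 9.37 and 9.46. The untreated Esrrb array was thus the highest of the 8 and the treated Nanog array the lowest. For the bZIP factor Cebpb the Esrrb and Nanog ratios were likewise the lowest (-1.49 in the Esrrb, -1.40 in the Nanog, 0.21 with the empty vector and -0.04 in 2i). For Ddit3, which codes for the stress factor Chop, the log2 ratio was -1.27 in the Esrrb pair and -0.84, 0.31 and -0.24 in the Nanog, empty vector and 2i pairs, and its second probe set read -0.40. Trib3, the inhibitor that Chop and Atf4 induce, was at -1.16, -0.96, 0.04 and -0.48. Atf3 was lowest in the Esrrb pair, with 8.28 and 6.70 (-1.58), beside -0.43, 0.62 and 0.80. None of these 5 genes was called over the 4 backgrounds (adjusted p from limma between 0.107 for Trib3 and 0.847 for Atf3), nor for the Esrrb pair against the others (adjusted p = 0.997 each). Atf4 itself, whose activity is set mainly by translation, read 12.67 and 12.26 (-0.41).

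The 13 enzymes of amino acid synthesis and one-carbon metabolism had a median log2 ratio of -0.57, beside -0.48 with the empty vector, -0.49 in 2i and -0.49 with Nanog. Aldh1l2, the mitochondrial enzyme that releases carbon dioxide from formyl-folate, read 9.35 and 7.15 on the Esrrb arrays (log2 ratio -2.19), with ratios of -1.58, -0.62 and -1.61 in the empty vector, 2i and Nanog pairs. It fell over the 4 backgrounds (-1.5, SE 0.245, adjusted p = 0.0313 from limma). Phgdh, which starts serine synthesis, read 12.61 and 11.44 (-1.17, with -0.71, -0.64 and -0.63 in the empty vector, 2i and Nanog pairs). Psph (-1.09), which ends that path, the folate enzyme Mthfd2 (-1.02), the alanine aminotransferase Gpt2 (-1.05, but -1.48 with the empty vector) and the mitochondrial Pck2 (-0.79) were called as well. All 13 measured enzymes of the list were lower in the Esrrb pair, 5 of them over 2-fold (0.967% of all genes were). Asns, the asparagine synthetase and a much used Atf4 target, read 13.09 and 13.00 (-0.08), and the aspartate aminotransferase Got1 had a ratio of -0.04.

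All 10 amino acid transporters were lower in the Esrrb pair, by a median of -0.39 on the log2 scale. Slc7a11, the cystine carrier, read 6.39 and 5.10 (-1.29, and between -0.44 and -0.07 in the other pairs), and the glycine carrier Slc6a9 stood at -0.96. Slc7a1, the carrier of cationic amino acids, fell over the 4 backgrounds (-0.48, SE 0.0618, adjusted p = 0.0221 from limma). Of 13 tRNA synthetases and export factors 12 were lower, with Sars at -0.84, Wars at -0.74 and Eprs at -0.62, and 0 were over 2-fold lower. Among the effectors Chac1, which breaks down glutathione, read 10.56 and 9.15 (-1.41), with ratios of -1.37, -1.31 and -0.88 in the other pairs, and fell (-1.24, SE 0.112, adjusted p = 0.0147 from limma). Stc2 (-1.77) and Vldlr (-1.66) fell also, and their other probe sets gave ratios up to -0.84 and -0.85. Ddit4, an inhibitor of mTORC1, had ratios of opposite sign, at -0.63 in the Esrrb and -0.45 in the Nanog pair and at 1.63 and 1.09 in the empty vector and 2i pairs. Its difference between the Esrrb and the other pairs was not called (adjusted p = 0.997 from limma).

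**Figure D3:**
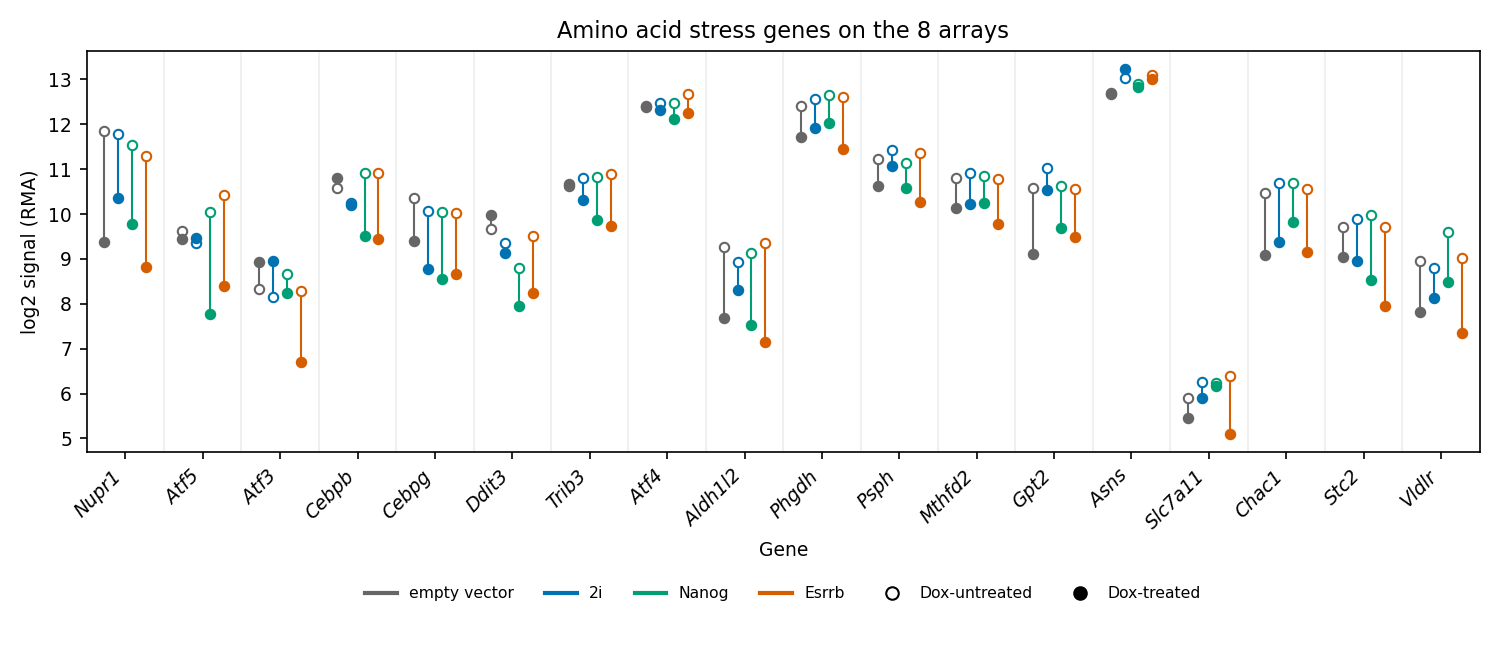
Log2 signal (vertical axis) of 18 amino acid stress genes on each of the 8 arrays, where an open circle is the untreated and a filled circle the treated array of a background, with a line between them and a colour per background. Nupr1 and Chac1 drop in all 4 pairs, Atf5 and Cebpb in the Nanog and Esrrb pairs, and Asns stays at 12.68 or above on every array.

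The unfolded protein response, a neighbouring stress pathway, was not lower as a list after Dox in the Esrrb pair. Its 15 genes had a median log2 ratio of 0.00 there, with 7 lower (49.5% of all genes were). The median was 0.45 with the empty vector, 0.30 in 2i and 0.33 with Nanog, so it was lowest in the Esrrb pair here too. Over 2-fold lower was 1 gene, Herpud1 (10.02 and 8.49, log2 ratio -1.53), a component of endoplasmic reticulum degradation. Herpud1 fell over the 4 backgrounds (-1.09, SE 0.140, adjusted p = 0.0221 from limma). Dnajc3 stood at -0.58 and Sdf2l1 at 0.46.

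Endoderm genes were lower after Dox in the Esrrb pair, and many of them were high on its untreated array. Of 43 measured genes 30 were lower in the Esrrb pair (49.5% of all genes were), 10 of them past 2-fold (0.967% of all genes), and 0 exceeded 2-fold upwards. The median log2 ratio was -0.35, while it was 0.13 with the empty vector, 0.38 in 2i and -0.03 with Nanog. On the untreated Esrrb array 13 of the 43 genes were over 2-fold above the mean of the other 3 untreated arrays, as were 0.813% of all genes, and 7 of the 10 were among them, all but Lrp2, Serpinh1 and Gata4. Averaging all probe sets of a gene left 6 past 2-fold, and leaving out dim genes left 3. On the treated Esrrb array 9 of the 43 were still above that mean by more than 2-fold, as were 449 of all 18194 genes. The untreated Esrrb array enters both measures, so that a high value on it alone lowers the ratio. In RNA of whole cultures, fewer endoderm cells and less RNA per cell cannot be told apart.

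Among the regulators, Gata6 read 8.39 and 7.81 on the Esrrb arrays, a log2 ratio of -0.58, and between 4.64 and 6.31 on the other 6. Pdgfra, the receptor of the primitive endoderm, read 8.42 and 7.24 (-1.19) and no more than 5.49 elsewhere. Sox17 read 6.86 and 6.17 (-0.69) and no more than 5.59 elsewhere. For these 3 genes both Esrrb arrays were above all 6 others. Gata4 read 5.58 and 4.57 (-1.01), with 4.57 to 4.72 elsewhere, so that only the untreated Esrrb array stood apart. Sox7 read 8.77 and 7.66 (-1.11), and Foxa2, Cer1 and Lhx1 were at 5.41 or below on both Esrrb arrays. The second probe sets of Gata4 and Sox7 gave ratios of -0.07 and 0.13, and 1 of the other probe sets of Pdgfra gave -0.44. For Sox17 the second probe set gave a lower ratio, -1.71.

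The endocytic receptors, with which visceral endoderm takes up maternal proteins, were all 4 over 2-fold lower. Cubn, the receptor cubilin, read 8.18 and 5.60 on the Esrrb arrays (log2 ratio -2.58), while the other 6 arrays lay between 3.85 and 4.91. The treated Esrrb array was therefore still the second highest of the 8. The difference of the Esrrb pair from the others was -2.88 (SE 0.473, unadjusted p = 0.00167, adjusted p = 0.997 from limma). Amn, the membrane anchor of cubilin, read 8.90 and 7.24 (-1.65) and was lower in the other pairs too (-1.63, -1.40 and -1.11). It was the only endoderm gene to fall over the 4 backgrounds (-1.45, SE 0.131, adjusted p = 0.0145). Lrp2, the receptor megalin, read 7.44 and 5.78 (-1.66) with -2.14 in the Nanog pair, but a further probe set stood at 0.20. Dab2, the adaptor of these receptors, read 7.65 and 6.46 (-1.18) against 6.05 or less elsewhere. Ratios of its 4 probe sets ranged from -1.57 to -0.37.

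Of the basement membrane genes, Col4a1 read 10.53 and 9.92 (log2 ratio -0.62) and Col4a2 9.03 and 8.37 (-0.66), whereas the ratios with the empty vector were 2.22 and 2.06. On the treated empty vector array they read 9.12 and 7.92, below both Esrrb arrays. Serpinh1, the collagen chaperone, read 9.51 and 8.41 (-1.10, against 1.40 in the empty vector pair). Srgn, a proteoglycan core protein of the parietal endoderm, had the largest excess, with 10.82 and 9.10 on the Esrrb arrays and 5.51 or less elsewhere. Rhox5 was the only endoderm gene over 1.5-fold higher (0.68), and it rose over the 4 backgrounds (0.96, SE 0.198, adjusted p = 0.0463). Of the plasma proteins of later visceral endoderm Afp read 4.49 and 4.37 and Ttr 5.87 and 5.52 on the Esrrb arrays. Apoe, which ESCs also express, read 12.64 and 12.27, and 0 of the 9 genes of this group were over 1.5-fold from equal.

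**Figure D4:**
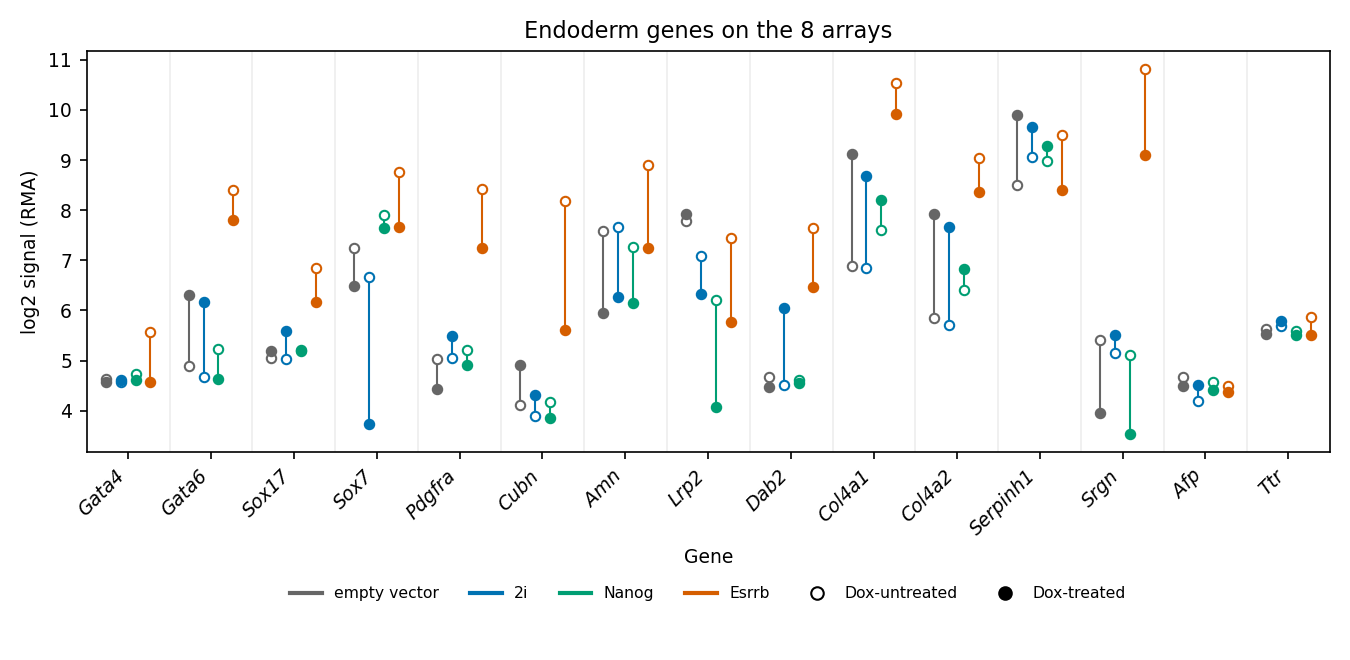
Log2 signal (vertical axis) of 15 endoderm genes on each of the 8 arrays, where an open circle is the untreated and a filled circle the treated array of a background, with a line between them and a colour per background. Gata6, Pdgfra, Cubn, Dab2, Col4a1 and Srgn lie higher on the untreated Esrrb array than on the other untreated arrays and lower on the treated one, and Afp and Ttr are low on all 8.

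The 10 genes with the smallest p for a response in the Esrrb pair below that of the other pairs were mostly high on its untreated array. There 9 of them were over 2-fold above the mean of the other untreated arrays (0.813% of all genes were). The untreated Esrrb array enters both measures. The exception was Lratd2 (log2 ratio -2.31), at 7.67 on the untreated Esrrb array and 8.08 to 8.41 on the others. Nostrin, an adaptor that regulates endothelial nitric oxide synthase, read 6.74 and 3.84 on the Esrrb arrays (log2 ratio -2.90) and 3.39 to 3.84 elsewhere. It gave the smallest p of this test (-2.67, SE 0.200, unadjusted p = 3.9e-05, adjusted p = 0.709 from limma). The water channel Aqp8 read 6.42 and 4.48 (-1.95), Klb, the co-receptor of Fgf21, 6.73 and 5.56 (-1.17, with another probe set at 0.30), and Tfec 4.67 and 3.68 (-0.99), each with a lower level on the other untreated arrays. Of the 176 genes over 2-fold lower, 24 (13.6%) were over 2-fold above the mean of the other untreated arrays on the untreated Esrrb array. Of all genes 0.813% were. For 110 of the 176 that array was within 1.5-fold of this mean, so that these genes, Nupr1, Aldh1l2 and Chac1 among them, started from a common level.

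Other genes with the lowest ratios were mostly lower in the other backgrounds too. Gch1, the first enzyme of tetrahydrobiopterin synthesis, read 8.41 and 6.09 (log2 ratio -2.32) and fell over the 4 backgrounds (-2.01, SE 0.178, adjusted p = 0.0145 from limma). Napsa, an aspartic protease (-2.04), the germ cell factor Dmrt1 (-1.97), G0s2, an inhibitor of fat breakdown (-1.88), and the homeobox factor Pbx3 (-1.81) fell as well. B4galnt2, a glycosyltransferase, stood at -2.84 and Zfp711, a zinc finger protein, at -2.52, but other probe sets of these genes gave ratios up to -0.15 and -0.59, and a second probe set of Napsa gave -0.35. In the Nanog pair B4galnt2 and Zfp711 stood at -2.86 and -2.29, and in 2i at -1.27 and -0.02. B4galnt2 fell over the 4 backgrounds (adjusted p = 0.0261 from limma) and Zfp711 was not called (adjusted p = 0.0784).

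Glycolysis and hypoxia genes were on the whole slightly higher. Of 44 measured genes 33 were higher after Dox in the Esrrb pair (50.4% of all genes were). Of these, 9 were over 1.5-fold higher (4.84% of all genes were) and 3 over 2-fold (1.06%). Over 2-fold lower was 1 gene (0.967% of all genes). The median log2 ratio was 0.28, and 0.04 with the empty vector, 0.23 in 2i and 0.27 with Nanog. Over the 4 backgrounds 10 of the 44 rose and 0 fell (limma; 3.69% and 3.39% of all genes). The 18 glycolytic enzymes had a median of 0.37 with 16 higher.

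Several genes of glucose entry and of glycolysis rose over the 4 backgrounds. Slc2a1, the glucose carrier Glut1, read 11.87 and 12.78 on the Esrrb arrays (log2 ratio 0.91, against 2.11, 0.87 and 0.61 in the empty vector, 2i and Nanog pairs) and rose over the 4 backgrounds (1.13, SE 0.241, adjusted p = 0.0495 from limma). The phosphofructokinase genes Pfkm, Pfkp and Pfkl stood at 0.94, 0.71 and 0.68, but another probe set of Pfkp gave -0.13 and the mean of its probe sets 0.23. Pfkl (0.75, SE 0.136, adjusted p = 0.0373) and Pfkp (0.60, SE 0.0947, adjusted p = 0.0300) rose, and Pfkm was not called (adjusted p = 0.0644). Pkm, the pyruvate kinase of growing cells, read 11.16 and 11.84 (0.68) and rose (0.50, SE 0.0917, adjusted p = 0.0373). Aldoc, an aldolase, read 7.76 and 8.85 (1.09, and 0.93 in the Nanog pair but -0.17 and -0.06 in the others), and its second probe set gave -0.69. Gapdh (0.06), Pgk1 (0.17) and Hk2 (0.28) were within 1.5-fold.

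The hypoxia targets were split. Ankrd37, a direct Hif1 target, read 4.87 and 6.50 on the Esrrb arrays (log2 ratio 1.63) and rose over the 4 backgrounds (1.63, SE 0.280, adjusted p = 0.0342 from limma). Bnip3, which marks mitochondria for removal, read 8.94 and 10.46 on the Esrrb arrays, 9.24 and 10.95 with the empty vector, 9.47 and 10.72 in 2i and 9.99 and 10.56 with Nanog. All treated arrays were above all untreated ones. The log2 ratio was 1.51 in the Esrrb pair, and Bnip3 rose too (1.26, SE 0.190, adjusted p = 0.0276). Their ratios were lowest in the Nanog pair (0.58 and 0.57). Ero1a, the oxidase of disulfide formation, read 10.35 and 9.10 (-1.26) and the angiogenic factor Vegfa 8.59 and 8.15 (-0.45), and neither was called. Hif1a (-0.04), Kdm3a (0.01) and Ak4 (0.05) were near 0. Egln3, a prolyl hydroxylase that marks Hif proteins for decay, was higher in the Esrrb pair (0.59) and lower in the empty vector (-0.47), 2i (-1.48) and Nanog (-0.24) pairs, a difference that was not called (adjusted p = 0.997).

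The promoters of the 2 highest hypoxia targets are shown, since Hif factors bind the letters ACGTG. These letters, searched on both strands, occurred in 31 of the 41 genes of the list with a window (75.6%), in 26.1% of the array genes with one and in 19.6% of all windows. The list was drawn up from general knowledge, with earlier results of these data known, and includes hypoxia targets. This excess was in part set by that choice. Of the 10 members over 1.5-fold from equal, 8 (80.0%) held them, a share near that of the whole list. The windows are Ankrd37 at chr8:45999801-46000100 and Bnip3 at chr7:138909457-138909756, both on the minus strand (RefSeq, GRCm38.p6).
Ankrd37: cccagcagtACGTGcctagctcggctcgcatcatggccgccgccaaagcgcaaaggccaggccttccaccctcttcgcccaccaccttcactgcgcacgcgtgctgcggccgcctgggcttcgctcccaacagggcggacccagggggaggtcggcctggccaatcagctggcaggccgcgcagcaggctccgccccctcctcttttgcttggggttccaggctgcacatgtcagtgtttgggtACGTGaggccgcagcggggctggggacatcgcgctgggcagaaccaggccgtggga
Bnip3: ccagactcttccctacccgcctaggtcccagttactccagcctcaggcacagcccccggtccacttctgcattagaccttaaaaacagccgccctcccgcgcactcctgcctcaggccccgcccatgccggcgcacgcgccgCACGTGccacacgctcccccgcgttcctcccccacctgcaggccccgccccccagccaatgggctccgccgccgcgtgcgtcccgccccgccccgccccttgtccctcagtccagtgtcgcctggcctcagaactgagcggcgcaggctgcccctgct
Capitals mark the matches, which begin at -241 and -6 from the start site in Ankrd37. In Bnip3 the matches on both strands overlap in CACGTG, an E-box that Myc and other factors also bind. In the endoderm promoters the GATA letters AGATAA occurred in 3 of 31 genes with a window (9.68%), beside 9.53% of array genes. The letters AAGGTCA of the Esrrb site occurred in 2 of 31 endoderm (6.45%), 2 of 45 amino acid stress (4.44%) and 1 of 41 glycolysis and hypoxia genes with a window (2.44%), beside 4.61% of array genes.

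**Figure D5:**
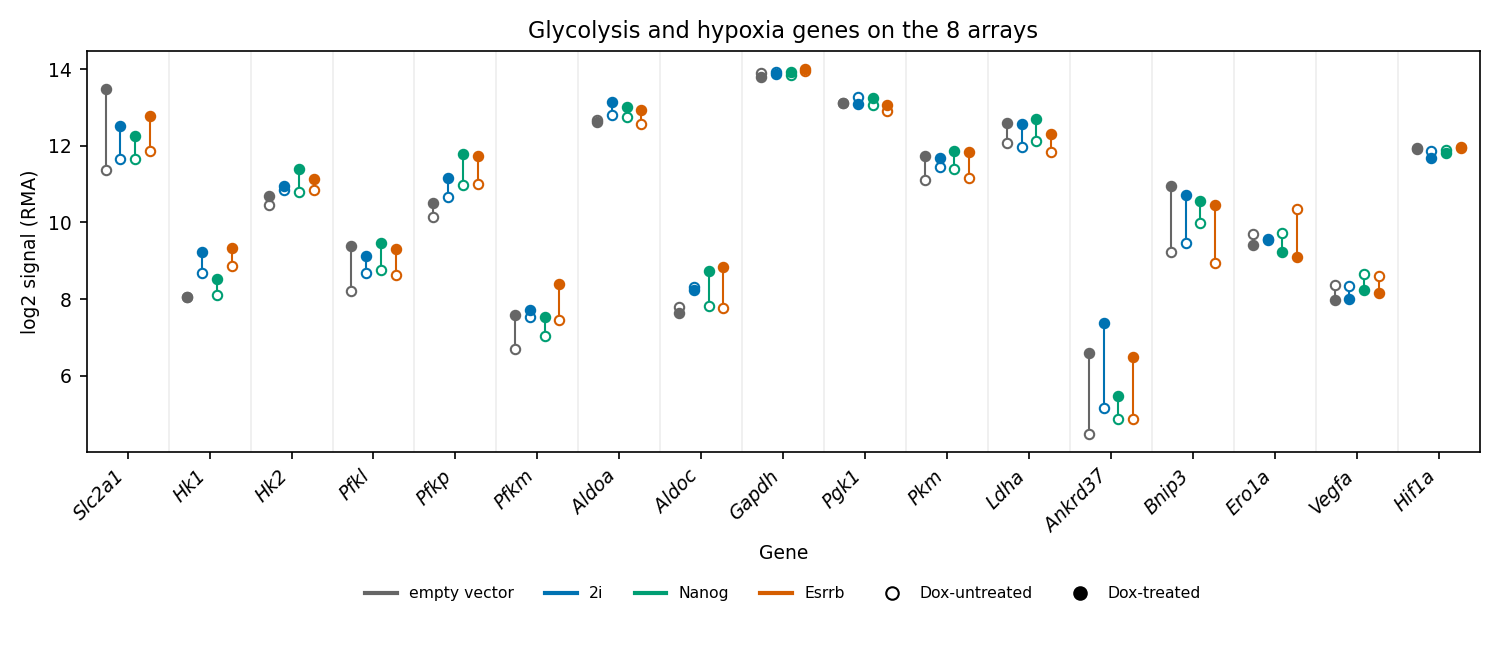
Log2 signal (vertical axis) of 17 glycolysis and hypoxia genes on each of the 8 arrays, where an open circle is the untreated and a filled circle the treated array of a background, with a line between them and a colour per background. Slc2a1, the phosphofructokinase genes, Pkm, Ankrd37 and Bnip3 are higher after Dox in all 4 pairs, and Ero1a is lower in the Esrrb pair.

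The pluripotency network stayed near its untreated level. Of 31 measured genes 0 passed 2-fold in the Esrrb pair and the median log2 ratio was 0.10. With the empty vector it was -0.50 and 7 genes exceeded 2-fold downwards (3.85% of all genes did). With Nanog it was -0.02 and 2 genes did so (213 of all 18194 genes). For 16 of the 31 the Esrrb pair had the highest ratio of the 4, as it did for 25.2% of all genes. The naive factors Prdm14 (0.11), Tbx3 (0.01), Tfcp2l1 (0.15) and Sall1 (0.00) were near 0, whereas their ratios with the empty vector were -1.81, -1.27, -0.77 and -1.70. Lin28a (-0.72) and Nr0b1 (-0.54), the nuclear receptor Dax1, were the farthest down, and Utf1 (0.56) was the farthest up. Lin28a and Nr0b1 fell over the 4 backgrounds (-1.13 and -1.56, SE 0.225 and 0.318, adjusted p = 0.0437 and 0.0455 from limma). In the empty vector pair Nr0b1 had a ratio of -2.30.

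Lineage markers other than endoderm also stayed near their level. The 23 trophoblast genes had a median log2 ratio of -0.01 with 0 past 2-fold, whereas 11 exceeded 2-fold upwards with the empty vector (5.36% of all genes did). With Nanog their median was 0.13, also with 0 past 2-fold. Krt7 (0.96) and the receptor Fgfr2 (-0.84) had the largest ratios. Mesoderm and primitive streak genes (median 0.07) held 0 past 2-fold, with Nodal at 0.68. Neurectoderm genes (median -0.02) held 1, Neurod1, which read 7.29 and 9.31. Of the primed epiblast genes (median -0.01), Otx2 read 9.41 and 8.05 (-1.36) and fell over the 4 backgrounds (-2.36, SE 0.397, adjusted p = 0.0325 from limma). The fibroblast genes had a median of 0.00 and 0 past 2-fold.

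In the remaining lists a few genes stood out. The class I heavy chain genes H2-K1 (9.56 and 8.46, log2 ratio -1.10) and H2-D1 (9.84 and 8.77, -1.07) fell over the 4 backgrounds by a similar amount (-1.09 and -1.10, SE 0.116 and 0.108, adjusted p = 0.0189 and 0.0172 from limma). Other probe sets of both gave ratios up to 0.12 and 0.71, and these genes are nearly alike in sequence. The peptide transporter Tap1 stood at 0.88 in the Esrrb pair, with another probe set at -0.15 and a mean over its probe sets of 0.17, and at 3.54 with the empty vector. Sterol synthesis genes had a median of 0.25 with 7 of 19 called as rising over the 4 backgrounds (limma; 3.69% of all genes were), among them Hmgcs1 (0.68) and Fdft1 (0.64). Lysosome and autophagy genes had a median of -0.24, with Hexa at -0.79.

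The imprinted growth inhibitor Grb10 read 11.98 and 10.49 (-1.49), and Phlda2 stood at -1.05. The germ line genes Taf7l (-1.54) and Sycp3 (-1.15) were lower and Dazl (1.3) higher, with a list median of -0.08. The membrane protein Ifitm3, an interferon-induced gene, read 9.29 and 11.02 (1.73) while the list's median was 0.09. The immediate early gene Fos read 11.27 and 12.19 on the Esrrb arrays (0.92), and its untreated level was 8.35 with the empty vector, 9.52 in 2i and 10.44 with Nanog. Egr1 read 11.55 and 12.55 (1.0), with untreated levels of 9.51, 10.73 and 11.20 in the same order. The lists of MEK and Erk feedback (0.17, with Dusp4 at -1.18) and of LIF and Stat3 targets (0.13, with Gbx2 at 1.09) had medians near 0. The medians were 0.04 for ribosome biogenesis, -0.15 for the cell cycle, 0.01 for oxidative phosphorylation, 0.05 for class I presentation and 0.02 for housekeeping genes.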

How the data were processed

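Total RNA of NS tet-off ESCs was hybridised to Affymetrix GeneChip mouse arrays, 1 array for each of the 8 conditions used here. The authors background-subtracted and normalised the arrays by robust multiarray analysis (RMA; per the labels with the affy package), and the deposited values are log2 signals of 45101 probe sets with array medians of 5.31 to 5.36. No build or annotation version is given in the sources used here. In the platform annotation 34958 probe sets name 1 gene, 932 name several, and the remaining 9211 were left unnamed. For 18194 genes the brightest probe set by mean log2 signal stood for the gene, and log2 ratios are treated minus untreated within a background. RMA pulls dim genes together, so ratios of dim genes understate a change.

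limma (3.58.1 in R 4.3.3, lmFit and eBayes with a trend) fitted the Dox response over the 4 backgrounds with background as a block (3 residual degrees of freedom) and the Esrrb response minus the mean of the other 3 (2 residual degrees of freedom), with Benjamini-Hochberg adjustment over all genes. On simulated data the median estimated change was checked against the true one. No share of changes recovered and no number of false calls is given here. Backgrounds are not replicates of 1 condition, so p-values measure the spread between backgrounds. The 24 gene lists and the members were chosen with earlier results of these data known. Named are Gnl3, Esrrb, Nanog and Pou5f1, the 15 highest and 15 lowest ratios among genes at or above the median signal of the Esrrb arrays, list members past 1.5-fold (endoderm, amino acid stress, glycolysis and hypoxia) or the 3 largest ratios (other lists), and the smallest p-values of both fits. Genes named outside this rule were chosen after their values were seen. Promoter windows (GRCm38.p6) span 250 bases before to 50 after a start site. Alternatives averaged all probe sets, left out _x_at probe sets or dim genes, normalised by quantiles again, centred the arrays, used folds of 1.5 and 3, dropped the trend or left out a pair.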

Additional observations from a re-analysis of the deposited data

How the results depend on the processing

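With single arrays the counts past a fold depend on that fold: at 1.5-fold 881 genes were higher and 646 lower in the Esrrb pair, and at 3-fold 51 and 46. With dim genes left out (mean below the median over genes) 107 were higher and 97 lower. The endoderm genes over 2-fold lower numbered 6 with all probe sets of a gene averaged, 3 with dim genes left out and 4 at 3-fold. The amino acid stress genes over the fold numbered 26 at 1.5-fold and 5 at 3-fold, the glycolysis and hypoxia genes 9 and 1, and the 2-cell genes 3 with dim genes left out. Of the 24 list medians 7 values moved by more than 0.1: 2-cell genes to 1.64 without _x_at probe sets and to 3.91 without dim genes, and, without dim genes, mesoderm to 0.18, primed epiblast to 0.14 and interferon genes to 0.21. Averaged probe sets gave 0.06 for MEK and Erk feedback and 0.14 for fibroblast genes.

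Over the 4 backgrounds 407 genes were called higher with averaged probe sets. With 1 pair left out between 1 and 26 were called higher and between 2 and 14 lower. The other settings kept the counts within 1.5 times. The cause was not tested, except that fewer pairs leave fewer degrees of freedom. The test of the Esrrb pair against the others called 0 genes in each alternative run. Averaging probe sets took Aldoc to 0.20, Lrp2 to -0.87, Gata4 to -0.54, Sox7 to -0.49, Pdgfra to -0.71, Ddit3 to -0.83, Pfkp to 0.23, Tap1 to 0.17 and Plk2 to 0.40. It took Sox17 further down, to -1.2. Of the 786 recomputed ratios of named genes 32 moved by more than 0.374, the SD over genes, and 0 past 2-fold changed sign.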

Other observations

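Of the 932 probe sets that carry several gene symbols, 22 exceeded 2-fold upwards and 9 downwards in the Esrrb pair. Of the 9211 left unnamed, 34 did so upwards and 25 downwards. Among genes with 1 symbol but a signal below the median of the Esrrb arrays, and so outside the rule for named genes, the lowest log2 ratios after Dox belonged to Fbln5, an elastic fibre protein (7.96 and 4.86, ratio -3.10), Esrp1, an epithelial splicing regulator (8.03 and 4.93, ratio -3.10), and Trim66 (7.03 and 4.11, ratio -2.92). These 3 genes were also lower in the Nanog pair, with ratios of -2.17, -2.13 and -2.17. The highest belonged to BC080696 (3.84 and 7.61, ratio 3.77) and to Arg2, the mitochondrial arginase (4.75 and 8.11, ratio 3.37), and with the empty vector their ratios were 3.95 and 3.30. They were chosen after their values were seen.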
